A study of Homo sapiens with 12 samples.

Results

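The transcripts of 7 genes of the insulin-like growth factor (IGF) system were followed in HT1080 fibrosarcoma cells: the IGF-binding proteins IGFBP3, IGFBP4, IGFBP5, IGFBP6 and IGFBP7 and the receptors IGF1R and IGF2R. They were chosen by gene symbol from the 16633 genes listed in either of 2 deposited expression tables, and all 7 had a row in both. HT1080 is an established human connective tissue tumour line, used here with a genotype given as wild type. That term does not say that the tumour line is free of mutations. Polyadenylated RNA was sequenced in 12 libraries, 3 in each of 4 groups. All cells were grown in biotin-depleted medium and moved to low serum before the treatment. In the PMA experiment, 24 h of treatment with PMA (phorbol 12-myristate 13-acetate, which activates protein kinase C) at 40 nM was compared with no treatment. In the ConA experiment, 24 h with the lectin concanavalin A (ConA), which binds mannose-rich glycans, at 40 µg/mL was compared with a separate set of untreated controls. The comparisons ask how each treatment altered transcript levels in the cell line in which the study mapped extracellular neighbours of the matrix protein TIMP2.

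IGF1 and IGF2 are secreted peptide hormones that drive growth and survival through IGF1R, a receptor tyrosine kinase. IGFBPs hold these ligands outside the cell and set how much of them can reach the receptor, and proteases that cleave IGFBPs release the ligand again. IGF2R, the cation-independent mannose 6-phosphate receptor, takes up IGF2 for breakdown in lysosomes and also sorts newly made lysosomal enzymes.

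The sequences before the start sites of IGFBP6 and IGFBP3 are shown because these were the members with the most opposed response to the treatments and with the largest fitted change, respectively. They come from RefSeq (GRCh38.p14), read 5′ to 3′ along the gene, and cover the 250 bases before the annotated start, at chr12:53097417-53097666 (plus strand) for IGFBP6 and chr7:45921273-45921522 (minus strand) for IGFBP3. Capitals mark the GC box (GGGCGG, on either strand), the one searched motif found in them.
IGFBP6: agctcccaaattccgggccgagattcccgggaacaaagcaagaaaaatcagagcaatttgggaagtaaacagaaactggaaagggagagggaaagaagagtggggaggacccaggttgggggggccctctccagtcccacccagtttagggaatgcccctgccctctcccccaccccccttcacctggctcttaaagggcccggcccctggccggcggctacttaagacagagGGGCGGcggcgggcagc
IGFBP3: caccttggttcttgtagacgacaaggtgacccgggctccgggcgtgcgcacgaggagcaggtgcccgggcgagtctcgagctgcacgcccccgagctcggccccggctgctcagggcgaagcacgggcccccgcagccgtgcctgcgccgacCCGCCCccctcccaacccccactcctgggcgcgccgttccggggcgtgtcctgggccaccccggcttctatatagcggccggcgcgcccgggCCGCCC
Promoter windows of 300 bases, the last 50 of them after the start, were matched for 6 of the 7 members, all except IGFBP7. Neither the AP-1 motif TGANTCA (in 7.764% of 27305 RefSeq promoter windows of that length) nor the GAS motif TTCNNNGAA (7.881%) was found in any of the 6, on either strand. The GC box, held by 44.585% of windows, occurred 2 times for IGFBP3, 2 for IGFBP4, 1 for IGFBP6, 2 for IGF1R and 6 for IGF2R, and not for IGFBP5. It began 17 bases before the IGFBP6 start and 98 and 6 bases before the IGFBP3 start. The TATA box was searched as the letters TATAAA only (11.954% of windows). These were matched for IGFBP4 alone among the 6, 29 bases before its start. Variants of these letters, such as the tatata in the printed IGFBP3 sequence, were not searched. The E-box CACGTG (7.435%) was matched for IGF2R alone, in 3 copies. A match describes letters in these windows and says nothing of binding.

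The libraries held an estimated 33633923 to 45578641 reads on genes. The values are normalized counts per gene, not divided by gene length, and each table had been normalized apart, so levels were compared within a table only. Of the mesenchymal markers, 13 of 13 were listed in the PMA table and 11 of 13 in the ConA table (summed level 477624 to 491600 in the PMA controls, 435744 to 457347 with PMA, 561252 to 641268 in the ConA controls and 422320 to 460035 with ConA). Monocyte markers summed to 343 to 374 in the PMA controls and 389 to 442 with PMA, and to 434 to 467 in the ConA controls and 373 to 437 with ConA. Endothelial markers summed to 165 to 209 and 208 to 218 in the PMA experiment, and to 191 to 242 and 261 to 280 in the ConA experiment, controls first. B cell markers reached at most 10.8, and no erythroid marker was listed. Epithelial markers summed to 27682 to 29554 in the PMA controls, 15611 to 16187 with PMA, 39274 to 40816 in the ConA controls and 34659 to 37504 with ConA, nearly all from the keratins KRT8 and KRT18. EPCAM and CDH1, which define epithelium, were not listed in the PMA table and stayed at or below 31.0 in the ConA table. CLDN4 was listed in both, at 59.9 to 112 in the PMA table and 98.05 to 153 in the ConA table. ESRP1 stayed at or below 25.0 in both, and KRT14, listed in the ConA table alone, at or below 16.3. T and NK cell markers stood out in the PMA experiment, with 10 of 10 listed and sums of 905 to 977 in the controls and 1200 to 1833 with PMA, against 2 of 10 listed and sums of 34.1 to 52.0 in the ConA experiment. The part of these shifts in marker levels in the results was not tested. One PMA control, replicate 2, held 16 of 15230 genes at 3 or more times the level of both other controls, IGFBP3 and CD24 among them, so results resting on it are also given without it. The other 11 libraries held 0 to 35 such genes each. PMA replicate 3 held 35 and PMA control replicate 3 held 20, so replicate 2 of the controls did not hold the most.

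**Figure D1:**
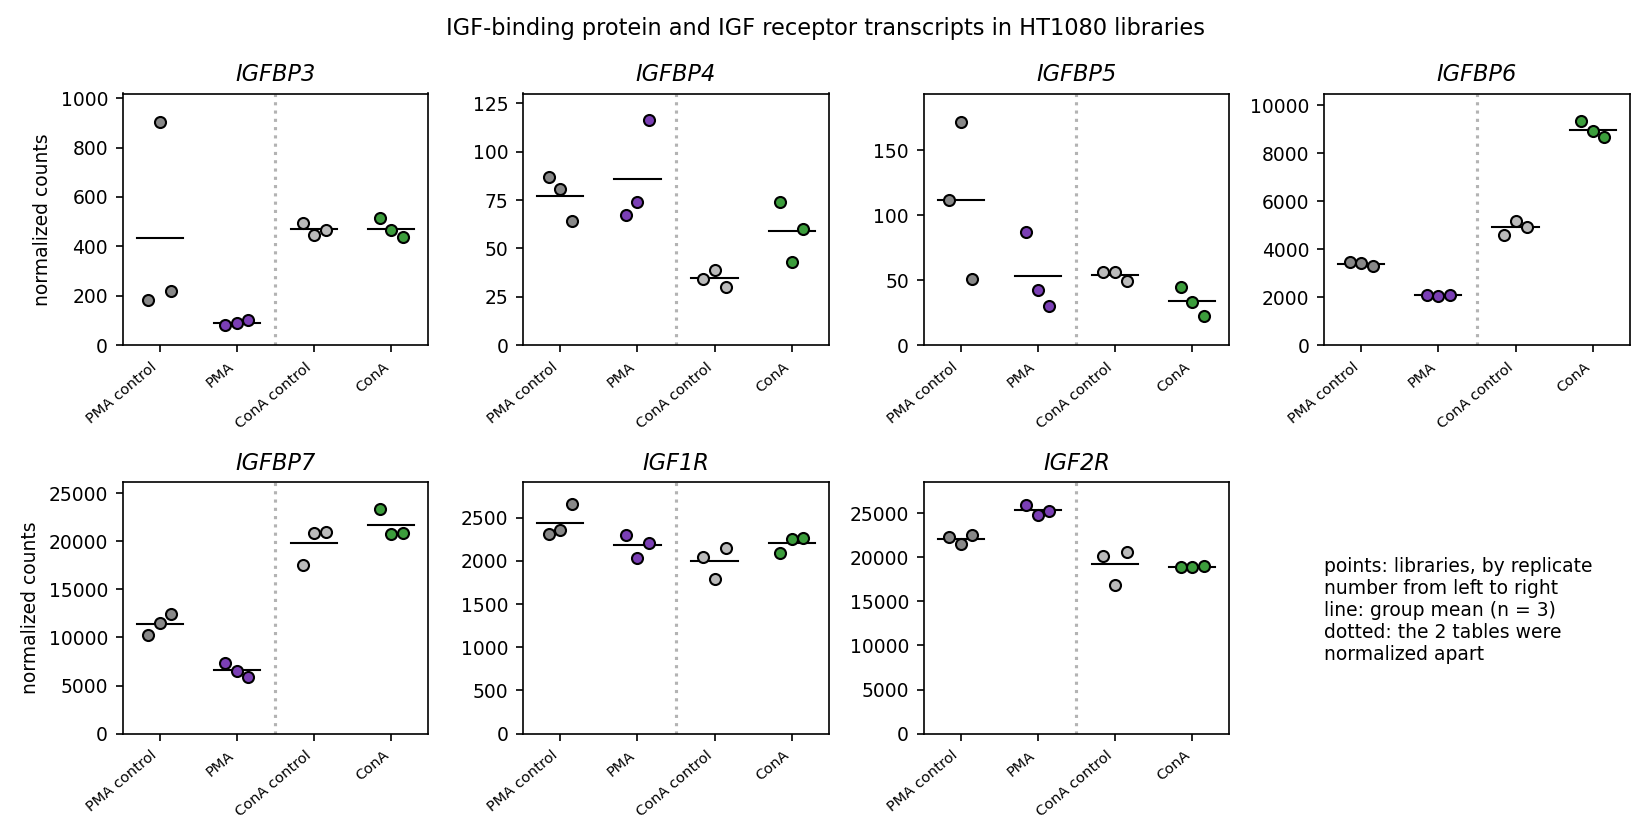
Normalized counts (vertical axis, from 0) of each member in every library, grouped on the horizontal axis by treatment. Points are libraries and lines are group means of 3. For IGFBP6, all 3 PMA libraries lie below and all 3 ConA libraries above the controls of their own experiment, and the PMA control of replicate 2 stands apart for IGFBP3 at 902.

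With PMA, IGFBP3, IGFBP6 and IGFBP7 fell (log2 fold changes of -1.86, -0.70 and -0.79), IGF1R fell slightly and IGF2R rose slightly. Without PMA control replicate 2, the IGFBP3 change was -1.14. With ConA, IGFBP6 and IGFBP4 rose and IGFBP5 fell. A fall or rise here means an adjusted p of at most 0.05 from limma on log2(normalized count + 1). At that level 5 of the 7 members differed with PMA (1 higher, 4 lower), beside 63.3% of all genes tested (32.8% higher, 30.5% lower). With ConA 3 differed (2 higher, 1 lower), beside 65.3% (32.8% higher, 32.5% lower). A call required more, namely a log2 change of 1 or larger in size together with an adjusted p no higher than 0.0001. None of the 7 members was called with PMA, where 8.65% of genes were, or with ConA, where 8.71% were. The libraries of the treatment all lay on one side of the controls for 5 of 7 members with PMA, beside 67.9% of genes, and for 3 of 7 with ConA, beside 69.3%. The median member log2 fold change was -0.70 with PMA and 0.13 with ConA, and the median absolute change was 0.70 and 0.15, beside 0.30 and 0.34 over all genes. The labels do not say whether replicates were separate cultures, so the p-values measure the spread between libraries, which may be technical. In bulk RNA, fewer cells that express a gene and less RNA per cell cannot be told apart.

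IGFBP6, a binding protein that prefers IGF2 to IGF1, moved in opposite directions. The PMA controls gave 3476, 3419 and 3289.5 normalized counts and the PMA libraries 2108, 2064 and 2100.1. All PMA libraries were thus lower than all controls, within a narrow band. The mean went from 3395 ± 95.5 (SD, n = 3) to 2091 ± 23.7 (SD, n = 3), which is -0.70 as a log2 fold change (95% confidence interval -0.79 to -0.61, adjusted p = 4.27e-08 from limma), or 1.62-fold lower. In the ConA experiment the controls gave 4606, 5184 and 4942 and the ConA libraries 9356, 8919 and 8700.4. Every ConA library was higher than every control. The mean was 4910 ± 290.1 (SD, n = 3) in the controls and 8992 ± 334 (SD, n = 3) with ConA, a rise of 0.87 on the log2 scale (95% confidence interval 0.75 to 0.99, adjusted p = 9.5e-09 from limma), or 1.83-fold higher.

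IGFBP7 is a secreted protein of the vessel wall and matrix with low affinity for IGFs. Its PMA controls gave 10287.5, 11516 and 12381 normalized counts and its PMA libraries 7356, 6557 and 5885, with no overlap. The level was 11395 ± 1052 (SD, n = 3) in the controls and 6599 ± 737 (SD, n = 3) with PMA, a log2 fold change of -0.79 ± 0.08 (standard error) with an adjusted p of 5.89e-06 from limma. With ConA the libraries gave 23334.5, 20733 and 20877.5 against 17529, 20817 and 20967 in the controls. These groups overlapped, and the log2 fold change of 0.13 (95% confidence interval -0.02 to 0.29) had an adjusted p of 0.12 from limma, which became 0.0141 at a log2 fold change of 0.21 after quantile normalization.

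IGFBP3, the main carrier of IGFs in serum, was lower with PMA, by an amount that depended on the control of replicate 2. The controls gave 183, 902 and 220.3 normalized counts and the PMA libraries 83.6, 88.4 and 101.8. All PMA libraries lay below the lowest control, while the second control was 4.47 times the mean of the other controls. The log2 fold change was -1.86 (adjusted p = 0.00373 from limma) with all libraries. Without the second control it was -1.14 (adjusted p = 8.08e-05 from limma), a smaller change that then met the call. In the ConA experiment the controls gave 496, 447 and 466 and the ConA libraries 514, 465 and 437. The groups overlapped, and the log2 fold change of 0.0047 had a 95% confidence interval of -0.18 to 0.19 (adjusted p = 0.966 from limma), its sign turning to -0.10 under quantile normalization and -0.06 under median centring.

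IGFBP4, an inhibitor of IGF action that is cleaved by pappalysin, had low values in both experiments. Its PMA controls gave 86.7, 80.5 and 64.1 normalized counts and the PMA libraries 67.3, 74.1 and 116.1. The groups overlapped, and a log2 fold change of 0.12 (95% confidence interval -0.33 to 0.58, adjusted p = 0.625 from limma) became -0.11 without PMA replicate 3 and -0.0018 without PMA control replicate 3. The ConA libraries gave 74.1, 42.9 and 60.2 against 34.4, 39.0 and 30.1 in the controls. Every ConA library was higher, with a log2 fold change of 0.73 ± 0.23 (standard error) with an adjusted p of 0.0112 from limma. Without ConA replicate 1 the change was 0.55 and its adjusted p 0.058, above the threshold.

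For IGFBP5, which also binds to matrix, the PMA controls gave 111.6, 172 and 50.6 normalized counts and the PMA libraries 87.1, 42.8 and 29.9. The groups overlapped, the log2 fold change was -1.02 (standard error 0.43) and the adjusted p was 0.0571 from limma. Leaving out single libraries moved the change from -0.63 (without PMA control replicate 2, adjusted p = 0.227 from limma) to -1.502 (without PMA control replicate 3, adjusted p = 0.0014) and to -1.44 (without PMA replicate 1, adjusted p = 0.0117). In a fit of all 12 libraries the adjusted p was 0.0284. The ConA libraries gave 45.1, 33.4 and 22.5 against 56.3, 56.0 and 49.1 in the controls. These did not overlap, and the change of -0.71 (log2) had an adjusted p of 0.0195 from limma. The adjusted p rose to 0.113 in a fit of all 12 libraries, to 0.101 without ConA replicate 3, where the change was -0.46, and to 0.0528 without ConA control replicate 5.

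Both receptors stayed within 0.20 of their controls on the log2 scale with either treatment. IGF1R gave 2308, 2358 and 2655 normalized counts in the PMA controls and 2303, 2037 and 2206 with PMA. All PMA libraries were lower, the nearest by a few counts, with a log2 fold change of -0.16 ± 0.06 (standard error) with an adjusted p of 0.041 from limma. That adjusted p was 0.12 without a variance trend, 0.0554 in a fit of all 12 libraries, 0.108 without PMA control replicate 3, 0.173 without PMA replicate 2 and 0.0731 without PMA replicate 3. The ConA libraries gave 2093, 2255 and 2263.5 against 2041, 1796 and 2149 in the controls. The groups overlapped, with a log2 fold change of 0.15 and an adjusted p of 0.0781 from limma, which was 0.0419 without ConA replicate 1 and 0.0345 without ConA control replicate 6. An antisense transcript of IGF1R, IRAIN, is also listed, and since the sources do not say that strand was used in counting, reads of the pair cannot be told apart.

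IGF2R gave 22266, 21461 and 22497 normalized counts in the PMA controls and 25961, 24787 and 25216 with PMA. Every PMA library was higher, by a log2 fold change of 0.20 ± 0.04 (standard error) with an adjusted p of 8.44e-04 from limma, which held under median centring at 0.19 but was -0.0041 (adjusted p = 0.924) after quantile normalization. With ConA the libraries gave 18945, 18843 and 19009, a tight cluster inside the range of the controls, 20163, 16859.6 and 20614. The log2 fold change was -0.02 (95% confidence interval -0.16 to 0.13, adjusted p = 0.855 from limma), and 0.04 after quantile normalization.

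Without PMA control replicate 2, the log2 fold changes with PMA were -0.69 for IGFBP6, -0.78 for IGFBP7, -0.18 for IGF1R and 0.18 for IGF2R, each still at an adjusted p of at most 0.05 from limma.

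The change with PMA was then compared with the change with ConA, in a limma fit of all 12 libraries that subtracts the change with ConA from the change with PMA. Among the members, 5 of 7 differed between the treatments at an adjusted p of at most 0.05 (1 higher and 4 lower with PMA than with ConA), beside 61.1% of 15030 genes (30.4% higher, 30.7% lower). Of the members 1, IGFBP6, was called, with the lower value under PMA, beside 10.6% of genes (3.67% higher, 6.89% lower). For IGFBP6 the difference was -1.57 on the log2 scale (standard error 0.07, 95% confidence interval -1.72 to -1.43, adjusted p = 2.41e-12 from limma). A fall with PMA together with a rise with ConA, each at an adjusted p of at most 0.05, was seen for 6.75% of the 14661 genes tested in both experiments and for IGFBP6 alone among the members. The difference was -0.92 for IGFBP7 (adjusted p = 3.7e-06 from limma), which also met the call at -1.15 after quantile normalization and at -1.005 without PMA replicate 1. For IGFBP3 it was -1.86 (adjusted p = 0.00463 from limma), and -1.14 (adjusted p = 1.05e-05) without the second PMA control, which then met the call.

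For IGF1R the difference was -0.31 (adjusted p = 0.0128 from limma). IGF2R went the other way at 0.21 (adjusted p = 0.0363 from limma), but this was -0.047 after quantile normalization and its adjusted p lay above 0.05 without a variance trend (0.0809) and when any 1 of 8 libraries was left out (up to 0.111, without ConA control replicate 6). IGFBP4 had a difference of -0.61 (95% confidence interval -1.28 to 0.07, adjusted p = 0.11 from limma), which passed 0.05 without PMA replicate 3 (-0.84, adjusted p = 0.0248) or without ConA replicate 2 (-0.82, adjusted p = 0.0333). IGFBP5 had -0.31 (95% confidence interval -1.46 to 0.84, adjusted p = 0.639 from limma), and 0.08 without PMA control replicate 2.

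**Figure D2:**
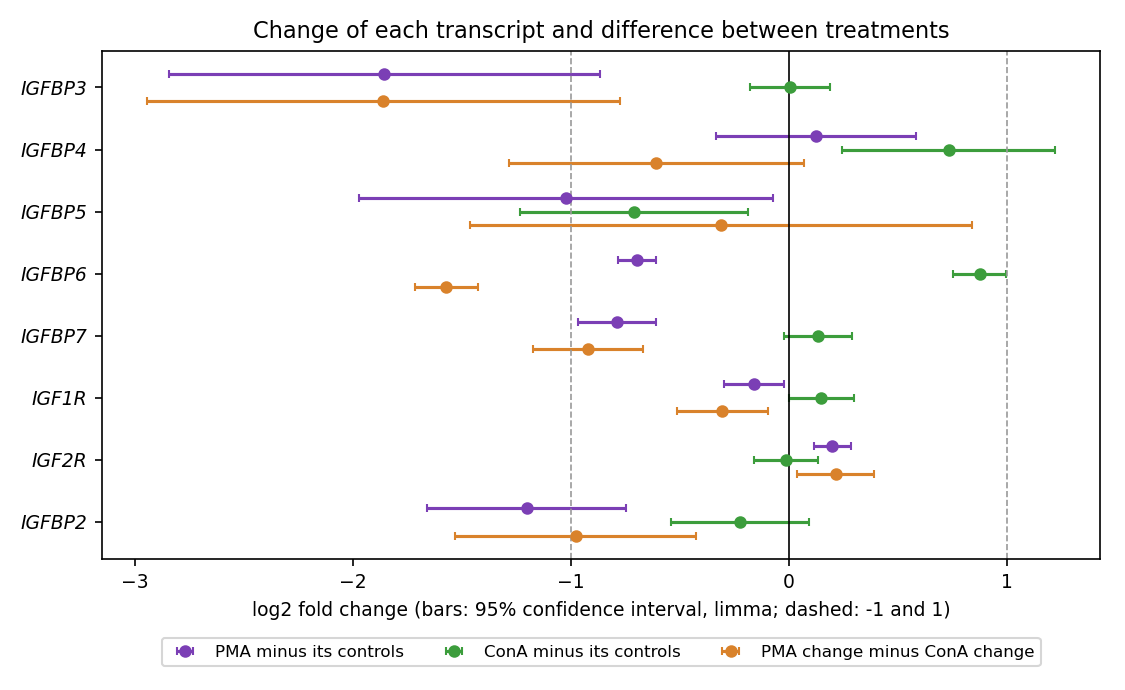
Log2 fold change (horizontal axis) of the 7 members and of IGFBP2 with PMA, with ConA and as the difference between the treatments, with 95% confidence intervals from limma. IGFBP6 is the member whose intervals lie wholly on opposite sides of 0 for PMA (-0.79 to -0.61) and ConA (0.75 to 0.99). The interval of IGFBP3 runs from -2.85 to -0.87 with PMA and from -0.18 to 0.19 with ConA. Without PMA control replicate 2, the IGFBP3 change with PMA was -1.14.

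Levels were set against each other only per kilobase of annotated exon (GENCODE 29, the union of a gene's exons), within each table. In the PMA controls, IGFBP7 stood first at 6278 ± 580 normalized counts per kb (SD, n = 3), followed by IGFBP6 at 2528 ± 71.1 and IGF2R at 1572 ± 38.7 (SD, n = 3). IGF1R (199.5 ± 15.3) and IGFBP3 (165 ± 154) did not separate, since the 3 IGFBP3 values ran from 69.7 to 343. IGFBP4 (35.0 ± 5.3) and IGFBP5 (17.9 ± 9.75) came last, and their ranges, 29.1 to 39.4 and 8.13 to 27.6, did not overlap. With PMA, the IGF2R level per kb (1803 ± 42.3) lay above that of IGFBP6 (1557 ± 17.7), the reverse of the order in the controls, with no overlap in either group. This order rests on the exon lengths used, 14.044 kb for IGF2R and 1.343 kb for IGFBP6. The annotation used in counting is not given, and the order was not tested with other lengths or scalings. IGFBP3 (34.7 ± 3.58 per kb) then lay among the low members, overlapping IGFBP4 (39.0 ± 12.0). In the ConA controls IGFBP7 (10893 ± 1071 per kb), IGFBP6 (3656 ± 216) and IGF2R (1368 ± 146) again led, IGFBP3 (178 ± 9.35, range 170 to 188) and IGF1R (163 ± 14.8, range 147 to 176) overlapped, and IGFBP4 (15.7 ± 2.04) and IGFBP5 (8.66 ± 0.657) were last. With ConA this order stayed, except that the means of IGF1R (180.1 ± 7.83 per kb) and IGFBP3 (179.2 ± 14.8) changed places while still overlapping. IGFBP6 stood at 6695 ± 249 per kb and IGFBP7 at 11927 ± 806.

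**Figure D3:**
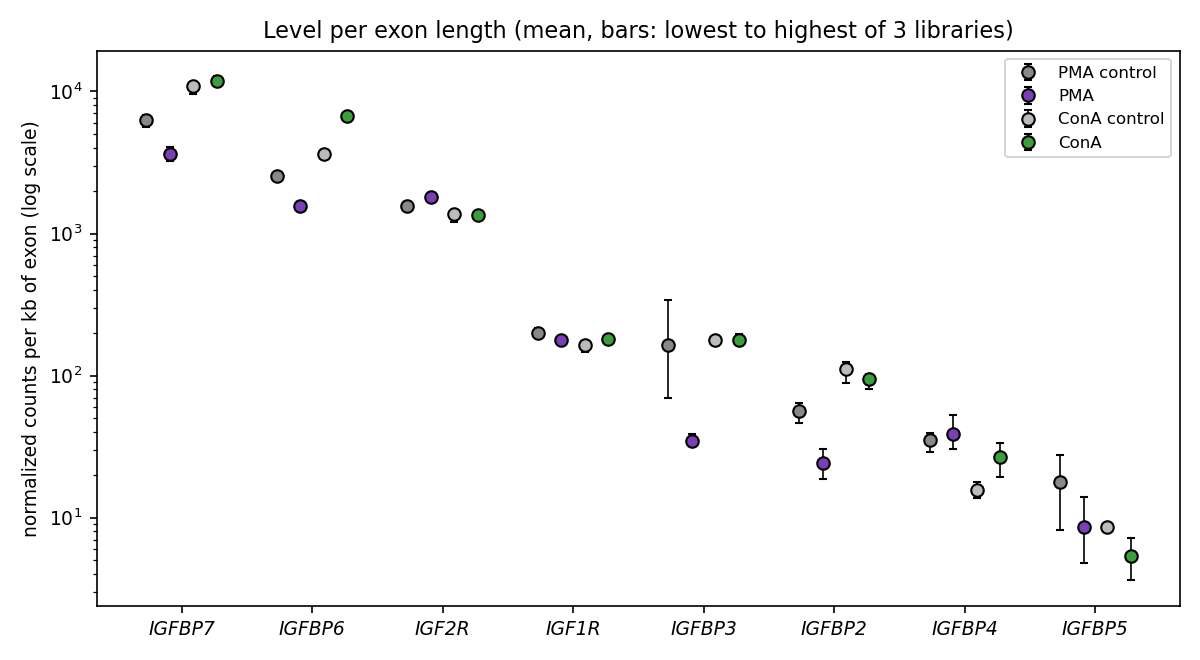
Normalized counts per kb of exon (vertical axis, log scale) for the 7 members and IGFBP2 in the 4 groups. Points are means of 3 libraries and bars run from the lowest to the highest library. IGFBP7, IGFBP6 and IGF2R lead in every group, and the longest bars are those of IGFBP3 in the PMA controls (69.7 to 343) and of IGFBP5.

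Ratios within a library do not depend on the factor by which that library was scaled. That holds for 10 of the 12 comparisons below, while the other 2, of summed levels, do depend on it. For all 12 an exact two-sided permutation test of 3 libraries against 3 was used, which cannot give a p under 0.1, so none could pass 0.05 (smallest Benjamini-Hochberg adjusted value 0.15). The IGFBP7 to IGFBP6 ratio per kb was 2.82, 2.97 and 3.14 in the ConA controls and 1.85, 1.72 and 1.78 with ConA, with no overlap (exact permutation p = 0.1). IGFBP6 made up 24.6% ± 0.98 (SD, n = 3) of the summed IGFBP2 to IGFBP7 level per kb in those controls and 35.4% ± 0.805 (SD, n = 3) with ConA. In the PMA experiment the IGFBP7 to IGFBP6 ratio was 2.49 ± 0.298 (SD, n = 3) in the controls and 2.34 ± 0.255 (SD, n = 3) with PMA, with overlap (exact permutation p = 0.5).

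The summed IGFBP level per kb was 8430, 9361 and 9450 in the PMA controls and 5723, 5242 and 4933 with PMA. It was 13390, 15645 and 15556 in the ConA controls and 20162, 18366 and 18259 with ConA. Neither pair of groups overlapped (exact permutation p = 0.1 each). The IGF2R to IGF1R ratio per kb was 7.91 ± 0.512 (SD, n = 3) in the PMA controls and 10.1 ± 0.417 (SD, n = 3) with PMA. It was 8.38 ± 0.213 (SD, n = 3) in the ConA controls and 7.49 ± 0.339 (SD, n = 3) with ConA, without overlap in either experiment (exact permutation p = 0.1 each).

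Of the ligands, only IGF2 was listed, at 24.4 ± 9.46 normalized counts (SD, n = 3) in the PMA controls and 27.8 ± 3.1 (SD, n = 3) with PMA, and at 13.6 ± 2.69 and 11.6 ± 5.64 (SD, n = 3 each) in the ConA controls and with ConA. Its log2 fold changes, 0.24 and -0.32, had adjusted p-values of 0.49 and 0.52 from limma. IGF1 and IGFBP1 had no row in either table. IGFBP2, another carrier of both IGFs, had 72.8, 100.2 and 92.1 normalized counts in the PMA controls and 37.1, 29.5 and 47.9 with PMA. It fell without overlap by 1.20 on the log2 scale (adjusted p = 3.72e-04 from limma), while with ConA the change was -0.22 (adjusted p = 0.195 from limma). The insulin receptor INSR was listed in the PMA table alone, at 30.8 ± 4.42 (SD, n = 3) in the controls and 14.3 ± 3.71 (SD, n = 3) with PMA, a log2 fold change of -1.07 (adjusted p = 0.0056 from limma).

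Further genes of the IGF axis were taken from lists of ligands, receptors and IGFBPs (the genes of the previous paragraph), proteases, partners and mRNA-binding proteins. Other lists held genes of the mannose 6-phosphate route, IGFBP-domain relatives, adaptors and the PI3K-AKT pathway. The lists were chosen with earlier results of these data known, so their counts are not a neutral comparison with all genes. Of 69 such genes besides the members, 59 were tested with PMA, of which 6 were called higher and 4 lower, beside 4.03% and 4.61% of all genes. The 6 include CD93, which passed the minimum mean only through its PMA libraries. With ConA 57 were tested, with 3 called higher and 1 lower, beside 5.83% and 2.88%. Their median absolute log2 change was 0.47 with PMA and 0.29 with ConA, beside 0.30 and 0.34 over all genes.

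All 6 genes for IGFBP proteases and their inhibitors differed with PMA at an adjusted p of at most 0.05, 2 higher and 4 lower, beside 63.3% of all genes, and 5 of 6 were lower with ConA, beside 32.5%. STC1, a stanniocalcin that inhibits the pappalysins, had 39435, 40939 and 39511 normalized counts in the PMA controls and 223667, 230629 and 224889 with PMA. It rose by 2.50 on the log2 scale (adjusted p = 2.76e-12 from limma) and was lower with ConA (-0.37). Its relative STC2 was lower with both (-0.90 and -0.49). PAPPA, the pappalysin that cleaves IGFBP4, was lower with PMA (-0.62) and with ConA stood at 0.13 (adjusted p = 0.183 from limma). PAPPA2, which cleaves IGFBP5, was lower with both treatments (-0.61 and -0.97). HTRA1, a secreted serine protease that also cleaves IGFBP5, was called lower with both, from 6304 ± 164 to 1690 ± 41.0 (SD, n = 3 each) with PMA and from 14205 ± 280.2 to 6314 ± 588 (SD, n = 3 each) with ConA. For the metalloprotease ADAM12, the difference between treatments was called (1.79, adjusted p = 2.18e-05 from limma), but not without PMA control replicate 2 or 3, without PMA replicate 3 or with voom, where adjusted p-values ran from 1.06e-04 to 1.19e-04.

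LRP1, an endocytic receptor reported to bind IGFBP3, was called lower with PMA (-1.20, adjusted p = 1.11e-09 from limma). TMEM219, described as an IGFBP3 receptor, rose with ConA (0.75) and was lower with PMA (-0.22). CD93, a binding partner of IGFBP7, was listed in the PMA table alone, at 2.77, 0.894 and 1.81 normalized counts in the controls and 78.9, 57.0 and 74.2 with PMA, where it was called higher. The IGF2 mRNA-binding proteins were all higher with PMA (IGF2BP1 0.92, IGF2BP2 0.71, IGF2BP3 0.50) and with ConA were 0.84, -0.16 and 0.29 in that order, all at an adjusted p of at most 0.05 from limma. Of the 4 genes of the mannose 6-phosphate route, whose tag IGF2R reads, M6PR encodes another receptor of the tag and not an enzyme. The other 3, GNPTAB, GNPTG and NAGPA, were lower with PMA, beside 30.5% of all genes, led by NAGPA at -0.72 (adjusted p = 5.72e-07 from limma). With ConA 2 of 4 were higher, M6PR (0.31) and GNPTAB (0.25), beside 32.8% of all genes.

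**Figure D4:**
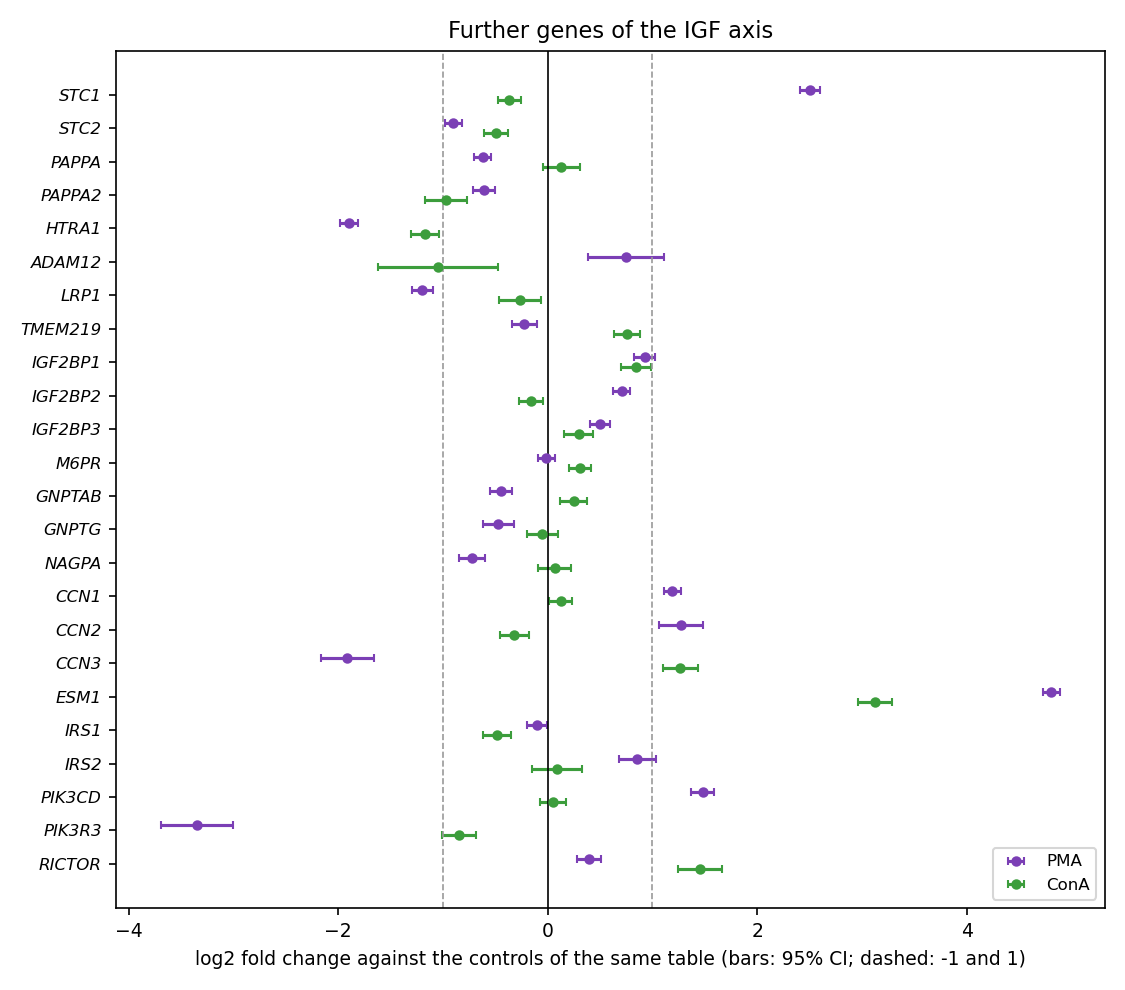
Log2 fold change (horizontal axis) with 95% confidence intervals from limma for further genes of the IGF axis, each treatment against the controls of its own table. ESM1 lies furthest right with both treatments (4.81 with PMA, 3.13 with ConA), while CCN3 lies at -1.91 with PMA and 1.27 with ConA.

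Of 13 relatives chosen for sharing the IGFBP domain, 9 had a row in each table and all 9 were tested. Their median absolute log2 change was 1.27 with PMA and 0.33 with ConA, beside 0.30 and 0.34 over all genes. This list too was chosen with earlier results known. ESM1, an endothelial proteoglycan core protein, went from 1411 ± 32.0 to 39555 ± 975 normalized counts (SD, n = 3 each) with PMA (log2 fold change 4.81, adjusted p = 4.41e-15 from limma) and from 578 ± 9.15 to 5073 ± 611 (SD, n = 3 each) with ConA (3.13, adjusted p = 1.85e-13). The matricellular proteins CCN1 and CCN2 were called higher with PMA, at log2 fold changes of 1.19 and 1.27, and with ConA stood at 0.12 (adjusted p = 0.0511 from limma) and -0.32 (adjusted p = 5.03e-04). CCN3 gave 327, 288 and 309.6 in the PMA controls and 90.5, 72.2 and 81.4 with PMA. In the ConA experiment it gave 319.9, 363 and 355 in the controls and 845, 853 and 799 with ConA. CCN3 was thus called lower with PMA (-1.91, adjusted p = 6.1e-08 from limma) and higher with ConA (1.27, adjusted p = 6.23e-09), and its difference of -3.18 (adjusted p = 1.33e-12) was the largest of all axis genes tested. The call of CCN2 with PMA was lost without a variance trend (adjusted p = 5.13e-04 from limma), and that of the CCN1 difference, 1.07, after quantile normalization (0.84).

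Downstream of IGF1R, IRS2, an adaptor that links the receptor to PI3K, was higher with PMA (0.86, adjusted p = 3.33e-06 from limma). None of the 7 adaptor genes tested was called, beside 8.65% of all genes with PMA and 8.71% with ConA. With 7 genes, a count below those shares could not be shown. In the PI3K-AKT list, 13 of 25 genes were higher and 9 lower with PMA and 8 higher and 9 lower with ConA at an adjusted p of at most 0.05. Over all genes the shares were 32.8% higher and 30.5% lower with PMA and 32.8% and 32.5% with ConA, near the list's counts with ConA. Of the 25, 1 was called higher and 1 lower with PMA, beside 4.03% and 4.61% of all genes. With ConA 1 was called higher, beside 5.83%. PIK3CD, a catalytic subunit, was called higher with PMA (1.48). PIK3R3, a regulatory subunit, was called lower with PMA (-3.35, from 572 ± 76.2 to 55.8 ± 11.7 normalized counts, SD, n = 3 each). PIK3R3 was also lower with ConA, from 2215 ± 227 to 1228 ± 66.5 (SD, n = 3 each). RICTOR, a subunit of mTORC2, was called higher with ConA (1.45, adjusted p = 1.4e-08 from limma), a call lost without a variance trend (adjusted p = 2.72e-04).

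The genes whose pattern over the 12 libraries was most like that of IGFBP6, by the root mean square difference of log2 values centred on the controls of each table, were TINAGL1 (0.0609), APOBEC3G (0.0863) and ITM2B (0.0944), out of 14661 genes. They were looked up after the values of IGFBP6 were known. TINAGL1, a matricellular protein, had 1197, 1185 and 1202 normalized counts in the PMA controls and 757, 757 and 788 with PMA. It had 1549.6, 1789.9 and 1818 in the ConA controls and 3226, 2843 and 3025 with ConA. For IGFBP3 the most alike gene was CD24 (0.21), which had 91.3, 439 and 93.0 in the PMA controls and so also stood high in replicate 2.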

How the data were processed

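RNA of HT1080 cells was sequenced in 12 libraries. The authors deposited signal values, which are normalized counts for each gene symbol, in 1 table per experiment. They are estimated counts divided by 1 factor per library. The submitters' processing notes name Partek, STAR, Bowtie2 and DESeq2 and the builds hg19 and mm10 without roles. The versions, the counting and its use of strand are not given in the sources used here. An estimated factor per library made 80.9% to 83.2% of values between 5 and 60 whole within 0.03. Whole reads were thus not recovered for all genes, and depth (33633923 to 45578641 reads) is an estimate.

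Within each table, treatment was set against control with limma 3.58.1 (R 4.3.3) on log2(value + 1), which understates changes of low genes, with a variance trend, for genes with a mean of at least 10 (15153 with PMA, 15139 with ConA), p-values being adjusted over all genes by the Benjamini-Hochberg method. The difference between treatments was fitted over 12 libraries with 4 group means. Calls needed a log2 change of 1 or larger in size with an adjusted p no higher than 0.0001. Alternatives covered the pseudocount, the filter, scaling, variance trend, a joint fit, voom on estimated reads, the adjusted p threshold, the replicate block and leaving out each library.

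Members and gene lists were chosen with earlier results of these data known. Named genes are the members, IGFBP1, IGFBP2, IGF1, IGF2 and INSR, every list gene called (1 of them is not reported here), the gene of largest change in each list without a call, and the 3 genes most like each called member. As none was called with either treatment alone, the genes most like IGFBP6 and IGFBP3, and other list genes named without a call, were picked after values were seen. Exon lengths came from GENCODE 29 and promoters from RefSeq (GRCh38.p14). Figures were drawn with Python 3.11.15 and matplotlib 3.10.9.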

Additional observations from a re-analysis of the deposited data

Results flagged for a closer look

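The change of IGFBP6 differed between the treatments, by -1.57 on the log2 scale for PMA minus ConA (standard error 0.07, adjusted p = 2.41e-12 from limma over all 12 libraries). The level was lower with PMA in 3 of 3 libraries and higher with ConA in 3 of 3 libraries, each against the controls of its own experiment. The difference ran from -1.70 to -1.52 over the other settings and from -1.61 to -1.53 with 1 library left out. The experiments had separate controls and tables, so an effect of the experiment on the response cannot be told apart from the treatment.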

How the results depend on the processing

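Of 383 values of the 21 member results under other settings, 363 kept their direction and their side of the call, 6 passed it and 14 turned sign. The number of genes called fell to 867 with PMA and 662 with ConA without a variance trend, was 1933, 1750 and 2321 (difference) at an adjusted p of at most 0.05, and ran over omitted libraries from 1107 to 1252, 1123 to 1415 and 1427 to 1594. At that adjusted p, IGFBP3 passed with PMA (-1.86) and for the difference (-1.86). Quantile normalization gave IGF2R -0.0041 with PMA, 0.041 with ConA and -0.047 for the difference, IGFBP3 with ConA -0.10 (median centring -0.058) and the IGFBP7 difference -1.15, a call. The scalings moved the median gene by under 0.1. Over omitted libraries, log2 changes ran with PMA from -2.28 to -1.14 for IGFBP3 and from -0.11 to 0.28 for IGFBP4, with ConA from -0.058 to 0.059 for IGFBP3 and from -0.11 to 0.038 for IGF2R, and for the difference from -2.29 to -1.14 (IGFBP3), -0.79 to 0.082 (IGFBP5) and -1.005 to -0.84 (IGFBP7). The cause of these shifts was not tested. Replicate numbers are shared in the PMA experiment only, and deviations of same-numbered libraries correlated at -0.0636, 0.0964 and 0.0964, so the numbers were not taken to pair them. With the replicate number as a block, 1264 genes were called with PMA and 1548 for the difference, no member gained or lost a call, and IGFBP5 with PMA had an adjusted p of 0.00662 from limma. Of 24 list calls, 19 held under every setting that tested the gene (CD93 was not tested at a minimum mean of 50 or in the joint fit). The call of RICTOR for the difference was lost without a variance trend, without ConA replicate 2 and without ConA control replicate 5 (-0.94). A minimum mean of 50 left IGFBP4 and IGFBP5 untested with ConA. IGFBP4 and IGFBP5 had 22.5 to 172 normalized counts per library, and 3 libraries per group limit the precision of every value.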

Other observations

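Of the IGF-like family, which lies outside the lists and was looked at after values were seen, IGFL3, a small secreted peptide, fell with both treatments. It had 66.4, 64.4 and 69.5 normalized counts in the PMA controls and 8.13, 16.2 and 8.38 with PMA (log2 fold change -2.57, adjusted p = 1.02e-05 from limma). It had 183, 136 and 123 in the ConA controls and 59.1, 38.7 and 48.5 with ConA (-1.58, adjusted p = 5.59e-06 from limma). The receptor gene IGFLR1 went from 141 ± 19.6 to 287 ± 20.4 (SD, n = 3 each) with ConA (1.02, adjusted p = 4.26e-06 from limma), and from 83.8 ± 8.39 to 109.7 ± 6.33 (SD, n = 3 each) with PMA (0.39, adjusted p = 0.0221 from limma).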
